A study of Mus musculus with 9 samples.

Results

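The genes described here are 39 mouse imprinted genes from 18 domains, those other than the domains around H19, Igf2 and Kcnq1 and around Dlk1 and Meg3. A member was measured where a probe set of the array is annotated with its symbol, the brightest probe set standing for the gene, and this held for 34 of the 39 genes, each with 1 probe set, among 28853 probe sets in all. The probe set of Snrpn, which also carries the name of Snurf, the other reading frame of the same transcript, was named through the study's own list of probe sets. The probe sets of Ube3a and Gnas list several gene symbols and were not counted, and for Slc22a3, Zrsr1 and Peg13 no probe set was named here. The rule goes by gene symbols and uses no measured difference between the lines.

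RNA of 3 mouse lines was hybridised to Affymetrix Gene 1.0 ST arrays, with 3 arrays for each line. P19 NTES7 is the line labelled as pluripotent stem cells derived from P19 cells, which the study made from blastocysts cloned with P19 nuclei, and all of its arrays come from that 1 line. P19 is the embryonal carcinoma line that gave the nuclei, and R1 is an embryonic stem (ES) cell line. All 3 lines were kept in ES cell medium with serum and leukemia inhibitory factor. The methods describe culture with mouse embryonic fibroblasts for the cloned line and the other pluripotent stem cells, and not for P19, and the series text states that feeder cells were removed before RNA was taken. The arrays of a line are labelled biological replicates, and separate cultures are not stated, so a p-value here reflects how far these arrays scatter, which may be technical.

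An imprinted gene is transcribed mainly from the chromosome inherited from 1 parent. DNA methylation laid down in the egg or the sperm marks the control region of a domain, and the neighbouring genes then read that mark in opposite ways, so that a domain often holds both paternally and maternally expressed genes. The zinc-finger protein ZFP57, which binds the methylated hexamer TGCCGC, helps to keep these marks in the early embryo and in ES cells. Many paternally expressed genes favour the growth of the fetus and the placenta, and several maternally expressed ones restrain it. Teratocarcinoma and stem cell lines, cultured for long periods, can lose or gain such marks. The arrays measured total RNA, not the parental origin of a transcript, and a probe set does not separate the isoforms of a gene.

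Promoters are shown for 4 paternally expressed genes whose levels separated the lines and that have a transcript start carrying the ZFP57 hexamer. The sequences are those of RefSeq on build GRCm38.p6, 250 bases before to 50 bases after a transcript start, on the strand of the gene, and capitals mark TGCCGC or, for the other strand, GCGGCA. The Mest window is chr6:30737800-30738099 (plus strand) with 17 CpG and 2 hexamers, the Plagl1 window is chr10:13090582-13090881 (plus strand) with 26 CpG and 1 hexamer, the Nnat window is chr2:157559828-157560127 (plus strand) with 17 CpG and 1 hexamer, and the Zdbf2 window is chr1:63200108-63200407 (plus strand) with 15 CpG and 3 hexamers.
Mest: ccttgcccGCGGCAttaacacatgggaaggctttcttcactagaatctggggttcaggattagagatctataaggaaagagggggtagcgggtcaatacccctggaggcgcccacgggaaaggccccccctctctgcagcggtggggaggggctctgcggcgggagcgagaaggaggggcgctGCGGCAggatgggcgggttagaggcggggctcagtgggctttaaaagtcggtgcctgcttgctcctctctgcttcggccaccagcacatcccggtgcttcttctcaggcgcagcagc
Plagl1: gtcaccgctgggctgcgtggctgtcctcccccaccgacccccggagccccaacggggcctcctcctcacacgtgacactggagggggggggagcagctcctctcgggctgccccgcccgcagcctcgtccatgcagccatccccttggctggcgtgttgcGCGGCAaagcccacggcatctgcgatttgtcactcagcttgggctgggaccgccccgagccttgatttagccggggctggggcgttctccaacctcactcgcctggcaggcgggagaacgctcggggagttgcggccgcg
Nnat: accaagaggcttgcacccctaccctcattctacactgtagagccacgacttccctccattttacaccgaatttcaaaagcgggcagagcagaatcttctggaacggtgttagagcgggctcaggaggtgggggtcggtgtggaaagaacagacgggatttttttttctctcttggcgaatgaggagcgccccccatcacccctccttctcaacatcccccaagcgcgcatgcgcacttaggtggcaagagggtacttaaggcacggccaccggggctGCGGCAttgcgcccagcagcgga
Zdbf2: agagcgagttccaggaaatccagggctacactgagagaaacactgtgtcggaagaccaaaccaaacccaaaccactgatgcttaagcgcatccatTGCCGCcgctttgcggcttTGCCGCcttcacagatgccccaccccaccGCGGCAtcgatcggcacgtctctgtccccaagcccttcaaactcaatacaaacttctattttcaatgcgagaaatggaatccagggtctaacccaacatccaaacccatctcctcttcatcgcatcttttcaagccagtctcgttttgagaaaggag

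Of the 39 listed genes, 34 had such windows, 53 in all, and 14 windows of 13 genes held the hexamer. Among the genes shown, Mest and Zdbf2 each have another start whose window held none, with 8 and 38 CpG. The genes with the hexamer include Nap1l5, Copg2, Mcts2, Commd1 and Slc22a2, whose levels met the limits given below in no comparison. Among all 32851 windows of the same length, 11.6% held it, 1.53% held 2 or more and 0.234% held 3 or more. The member windows had a median of 15 CpG, against 7 in all windows. Peg3 and Usp29 start from opposite strands of the same stretch, with 263 bases shared by their windows and no hexamer in either. Igf2r had 34 CpG and no hexamer in its window, and Ndn had 11 CpG and no hexamer. A match is a run of letters, not a bound site, and its absence from a window says nothing of the factor.

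Changes between the lines were common among these genes, and they ran both ways. A gene was called where the Benjamini-Hochberg adjusted p over all probe sets was under 0.01 and the fold over 2, and every adjusted p below comes from limma with the 9 arrays in 1 fit. In P19 NTES7 against P19, 4 of the 34 genes were called higher (11.8%, against 1.55% of all probe sets) and 5 lower (14.7%, against 1.36%). In P19 NTES7 against R1, 4 were called higher (11.8%, against 1.99%) and 2 lower (5.88%, against 2.53%). In P19 against R1, 8 were called higher (23.5%, against 3.70%) and 5 lower (14.7%, against 3.70%). Many probe sets lie near the floor of the array. Among 11886 named genes above the array median on at least 1 array, the shares called higher and lower were 2.42% and 2.32% in P19 NTES7 against P19, 2.82% and 4.76% in P19 NTES7 against R1, and 5.81% and 6.45% in P19 against R1. The 3 comparisons share arrays with each other and are not independent.

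In all, 17 of the 34 genes were called in at least 1 comparison and 17 in none. The share of all probe sets called in at least 1 comparison was not computed. Of the 108 neighbouring genes described below, 10 were called in at least 1, but dim genes are more common among them than among the members. The median log2 difference of the 34 genes was 0.04 for P19 NTES7 minus P19, 0.11 for P19 NTES7 minus R1 and 0.23 for P19 minus R1, beside 0.03, 0.01 and -0.03 over all probe sets. Without a limit on the fold, 18, 21 and 24 of the 34 genes had an adjusted p under 0.01 in these comparisons, against 11.3%, 17.1% and 23.0% of all probe sets. The number of arrays limits the precision: the median SD of a log2 value within a line was 0.132 in P19 NTES7, 0.106 in P19 and 0.121 in R1.

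Of 108 measured genes within 3 measured genes of a domain on either side, 1 was higher and 1 lower by the call in P19 NTES7 against P19 (0.926% each), 1 higher and 2 lower in P19 NTES7 against R1 (0.926% and 1.85%), and 3 higher and 7 lower in P19 against R1 (2.78% and 6.48%). The last share is above the 3.70% of all probe sets, and the others are below theirs. Of these neighbours, 7 stand in the lists of other imprinted genes (Ago2, Bcl2l1, Cobl, Kcnk9, Klf14, Peg12 and Phactr2), and without them the counts were the same but for 1 and 6 lower against R1 in P19 NTES7 and in P19, Cobl being left out. At 37 of the 108, all 9 arrays were below the array median. The difference between the members and their neighbours was not tested.

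Some of the 10 called neighbours, named here after their values were seen, differed by as much as the members beside them. Zfp521, Map3k4 and Utrn ran against the member beside them. Zfp521, beside Impact, differed by -1.06 for P19 NTES7 minus P19 and 1.701 for P19 minus R1, against 2.03 and -1.48 for Impact. Map3k4, beside Igf2r, differed by 1.06 for P19 minus R1, against -1.60 for Igf2r. Utrn, beside Plagl1, was called lower in P19 than in R1, where Plagl1 was called higher. Cep41, a centrosomal protein gene beside Mest, averaged 285 in P19 NTES7, 313 in P19 and 41.9 in R1, and its log2 differences were 2.77 for P19 NTES7 minus R1 (adjusted p = 1.5e-09) and 2.90 for P19 minus R1 (adjusted p = 5.1e-10). Adam23, a membrane adhesion protein gene beside Zdbf2, averaged 38.4 in P19 NTES7, 59.1 in P19 and 386 in R1, with -3.33 (adjusted p = 1.77e-10) and -2.71 (adjusted p = 4.25e-10) in the same comparisons. Both were thus apart from R1 in the direction of the imprinted gene beside them. Cobl, an actin nucleator beside Grb10, averaged 13.7 in P19 NTES7, 19.9 in P19 and 78.7 in R1, with -2.52 (adjusted p = 9.63e-10) and -1.98 (adjusted p = 3.91e-09). Pnldc1, an exonuclease of small RNA maturation beside Igf2r, averaged 48.9 in P19 NTES7, 14.7 in P19 and 71.4 in R1, with 1.74 for P19 NTES7 minus P19 (adjusted p = 1.31e-06) and -2.27 for P19 minus R1 (adjusted p = 2.56e-08), lowest in P19 as Igf2r was.

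**Figure D1:**
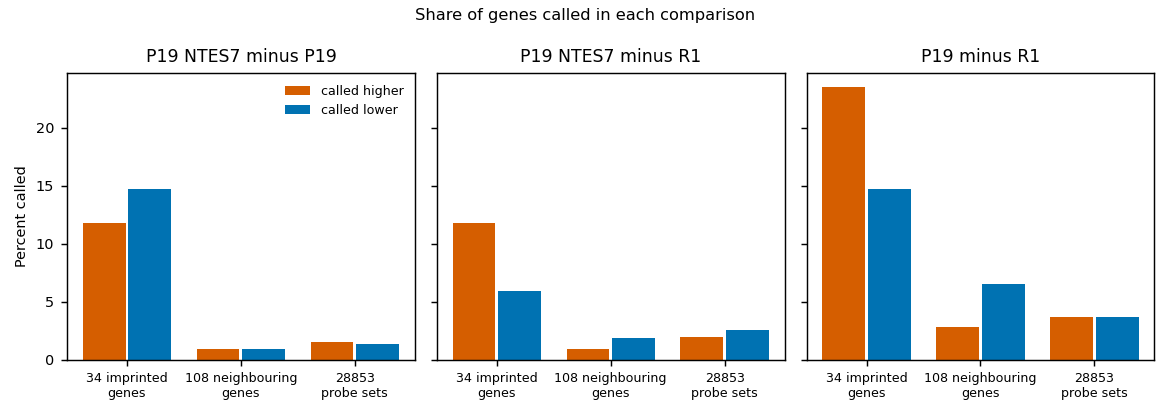
Percent of genes called higher (orange) or lower (blue) in each comparison, for the 34 imprinted genes, the 108 neighbouring genes and all 28853 probe sets. The imprinted genes reach 23.5% called higher and 14.7% called lower in P19 against R1, where both directions stand at 3.70% of all probe sets.

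The lines were first set against markers fixed for their labels and for other cells. Pou5f1, the core pluripotency factor, averaged 1471 in P19 NTES7, 2196 in P19 and 1470.1 in R1, Sox2 averaged 542 in P19 NTES7, 665 in P19 and 884 in R1, and Nanog averaged 627 in P19 NTES7, 178 in P19 and 913 in R1 (n = 3 arrays each). Levels here and below are RMA intensities on the linear scale, which carry no unit. They were compared within a gene or, for marker lists, as sums over the same genes, and such sums follow the brightest ones. All 3 genes were above the array median in every line, and Nanog was lowest in P19. Of the 10 pluripotency markers of the list, 3 were higher and 1 lower by the call in P19 NTES7 against P19, 0 and 4 in P19 NTES7 against R1, and 0 and 4 in P19 against R1. Among those that separated the lines, Esrrb averaged 32.4 in P19 NTES7, 9.26 in P19 and 229.8 in R1, Zfp42 averaged 41.7 in P19 NTES7, 19.7 in P19 and 289 in R1, and Utf1 averaged 73.5 in P19 NTES7, 471 in P19 and 584 in R1, genes named after their values were seen. Fibroblast markers separated P19 from both other lines. Of 23 measured markers, 14 were higher and 0 lower by the call in P19 NTES7 against P19, 0 higher and 3 lower in P19 NTES7 against R1, and 0 higher and 18 lower in P19 against R1. Their summed intensity was 1353 to 1660 in P19 NTES7, 432 to 467 in P19 and 1919 to 2296 in R1, and 2, 15 and 1 of them had a mean below the array median in these lines. Dcn, the matrix proteoglycan decorin, averaged 80.6 in P19 NTES7, 8.45 in P19 and 232 in R1, and Col1a1, a collagen chain, averaged 297 in P19 NTES7, 49.2 in P19 and 342 in R1. RNA of another cell type and a change within the named cells cannot be told apart in bulk RNA, nor can fewer cells and less RNA per cell. Among 12 markers of extraembryonic endoderm, 2 were called higher and 0 lower for P19 NTES7 minus P19, 0 and 0 for P19 NTES7 minus R1, and 0 and 1 for P19 minus R1, with summed intensities of 248 to 273 in P19 NTES7, 209 to 225 in P19 and 245 to 254 in R1. Among 11 measured trophoblast markers the counts were 2 and 0, 1 and 0, and 0 and 0, with sums of 277 to 294 in P19 NTES7, 142 to 173 in P19 and 171 to 210.4 in R1. Among 11 measured neural markers they were 0 and 2, 1 and 4, and 2 and 2, with summed intensities of 284 to 306 in P19 NTES7, 540.0 to 621 in P19 and 513 to 567 in R1. Beside these counts, the shares of all probe sets called higher and lower were 1.55% and 1.36%, 1.99% and 2.53%, and 3.70% and 3.70%. Some genes stand in 2 lists (named after their values were seen). Pdgfra, in the fibroblast and endoderm lists, was called for P19 NTES7 minus P19 (2.33) and P19 minus R1 (-2.31), the only endoderm call in the latter. Ascl2, the trophoblast marker called for P19 NTES7 minus R1 (1.25), is also counted in the H19, Igf2 and Kcnq1 domain below. The part of these cell types in the results below was not tested.

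Igf2r, Impact and Nnat were low in P19 alone. Igf2r, the maternally expressed receptor that clears the growth factor IGF2, stood at 225, 193 and 215 in P19 NTES7, 61.3, 68.3 and 78.4 in P19, and 199.6, 205 and 223 in R1. The P19 arrays lay below all others, and those of P19 NTES7 and R1 overlapped. The log2 difference was 1.61 ± 0.11 for P19 NTES7 minus P19 (SE, adjusted p = 3.45e-07) and -1.60 ± 0.11 for P19 minus R1 (adjusted p = 9.93e-08), and 0.01 for P19 NTES7 minus R1, with a 95% interval of -0.23 to 0.25 (adjusted p = 0.964).

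Airn, the paternally expressed noncoding RNA that silences the paternal copy of Igf2r in most tissues, was below the array median on all 9 arrays, at 9.88 to 10.5 in P19 NTES7, 7.73 to 9.74 in P19 and 13.1 to 16.5 in R1. Its differences of -0.56 for P19 NTES7 minus R1 and -0.83 for P19 minus R1 had adjusted p of 0.00275 and 7.97e-05, short of a fold of 2. Both genes of the pair had their lowest mean in P19. Slc22a2, a cation transporter of the same domain, was also below the array median on all 9 arrays, between 9.35 and 11.1, with overlapping lines.

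Impact, the paternally expressed inhibitor of the stress kinase GCN2, stood at 713, 834 and 667 in P19 NTES7, 179, 172 and 188 in P19, and 476, 449.8 and 589.8 in R1. The 3 lines did not overlap. The log2 difference was 2.03 ± 0.12 for P19 NTES7 minus P19 (adjusted p = 9.96e-08), a 4.09-fold higher level in P19 NTES7, and -1.48 ± 0.12 for P19 minus R1 (adjusted p = 4.69e-07). P19 NTES7 was also above R1, by 0.55 (adjusted p = 0.00398), short of a fold of 2.

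Nnat, the paternally expressed gene of the membrane proteolipid neuronatin, stood at 28.0, 33.5 and 46.8 in P19 NTES7, 9.70, 10.7 and 10.9 in P19, and 24.1, 24.9 and 28.3 in R1. The P19 arrays were below the array median, where folds run against the floor of the array and are not exact. On the log2 scale, Nnat differed by 1.76 ± 0.15 for P19 NTES7 minus P19 (adjusted p = 3.68e-06) and -1.30 ± 0.15 for P19 minus R1 (adjusted p = 1.79e-05), and the arrays of P19 NTES7 and R1 overlapped. Blcap, in whose intron Nnat lies and which is expressed from the maternal copy in brain, did not follow. Its 9 arrays lay between 40.6 and 52.1, with a difference of 0.01 for P19 NTES7 minus P19 and a 95% interval of -0.22 to 0.23. Like the fibroblast markers, whose summed level is given above, Igf2r, Impact and Nnat were lowest in P19. For P19 NTES7 minus R1 the median log2 difference of the markers was -0.51, and Igf2r differed by 0.01, Impact by 0.55 and Nnat by 0.46. These 3 genes were not called there, and the arrays of Igf2r and Nnat overlapped (adjusted p = 0.964 and 0.0452). Whether fibroblast RNA had a part in these levels was not tested.

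Plagl1, Calcr, Ndn and Sgce were high in P19 alone. Plagl1, a paternally expressed zinc-finger transcription factor that slows the cell cycle, gave the widest difference among the 34 genes. It stood at 56.5, 72.1 and 55.9 in P19 NTES7, 278, 315 and 377 in P19, and 36.7, 34.5 and 38.3 in R1. The 3 lines did not overlap. The log2 difference was -2.39 ± 0.13 for P19 NTES7 minus P19 (adjusted p = 4.31e-08), a 5.26-fold lower level in P19 NTES7, and 3.14 ± 0.13 for P19 minus R1 (adjusted p = 7.11e-10), 8.80-fold higher in P19. P19 NTES7 was 0.74 above R1 (adjusted p = 0.000756), short of a fold of 2.

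Calcr, the calcitonin receptor, maternally expressed in brain, lies beside the Peg10 and Sgce genes. It stood at 14.3, 13.4 and 14.8 in P19 NTES7, 50.2, 53.3 and 79.9 in P19, and 16.03, 16.6 and 16.04 in R1. Only the P19 arrays were above the array median. Calcr differed by -2.08 ± 0.15 on the log2 scale for P19 NTES7 minus P19 (adjusted p = 4.15e-07) and 1.88 ± 0.15 for P19 minus R1 (adjusted p = 2.99e-07).

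Sgce, the epsilon-sarcoglycan of the membrane, shares a control region with Peg10 and is paternally expressed. It stood at 40.4, 28.4 and 35.1 in P19 NTES7, 66.3, 60.9 and 75.6 in P19, and 30.1, 28.8 and 34.5 in R1. Its log2 difference of 1.12 ± 0.13 for P19 minus R1 was called (adjusted p = 2.03e-05), and that of -0.98 for P19 NTES7 minus P19, a 1.97-fold lower level, fell just short of the fold limit (adjusted p = 0.00018). Without replicate 1 of P19 NTES7 or replicate 2 of P19, the second was -1.09 and -1.05 and was called. P19 NTES7 and R1 overlapped.

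Peg10, a gene derived from a retrotransposon and needed for the placenta, did not follow Sgce. It stood at 862, 731 and 847 in P19 NTES7, 1721, 1781 and 1952 in P19, and 1667, 1616 and 1297 in R1, so that here P19 NTES7 was the low line. Peg10 differed on the log2 scale by -1.16 ± 0.12 for P19 NTES7 minus P19 (adjusted p = 1.26e-05) and -0.90 for P19 NTES7 minus R1 (adjusted p = 6.18e-05), and P19 minus R1 was 0.26 (adjusted p = 0.114). Without replicate 3 of R1, its lowest array, the difference of P19 NTES7 minus R1 was -1.02 and was called.

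The other genes of the Peg10 domain took different courses. Tfpi2, a secreted protease inhibitor expressed from the maternal copy in the placenta, stood at 15.5, 22.8 and 19.7 in P19 NTES7, 14.7, 14.1 and 14.7 in P19, and 35.5, 37.1 and 35.3 in R1. R1 was the high line, with a log2 difference of -1.31 ± 0.12 for P19 minus R1 (adjusted p = 2.12e-06) and -0.92 for P19 NTES7 minus R1 (adjusted p = 9.24e-05). Without replicate 2 of P19 NTES7 the second became -1.04 and was called. Asb4, an ankyrin-repeat protein of the placental vessels, was below the array median on all 9 arrays, and Ppp1r9a, the actin-binding neurabin, lay between 22.2 and 35.6 and was not called.

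**Figure D2:**
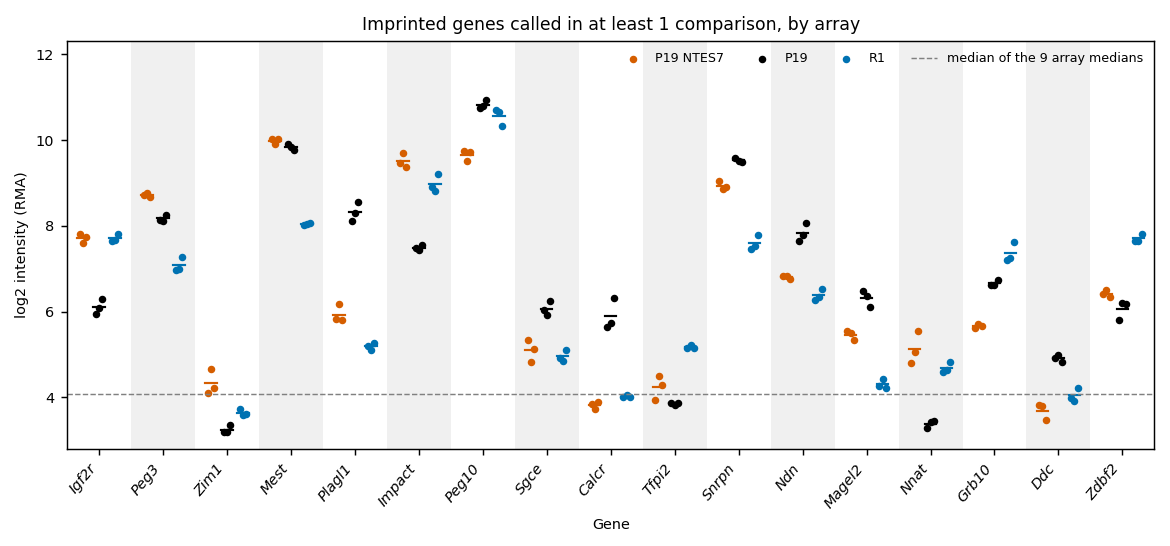
Log2 RMA intensity of the 17 imprinted genes called in at least 1 comparison, with 1 point for each array and a bar for the mean of a line (P19 NTES7 orange, P19 black, R1 blue, n = 3 arrays each), and a dashed line at the median of the 9 array medians. Igf2r, Impact and Nnat are lowest in P19, Plagl1, Calcr and Ndn are highest in P19, and Peg3, Mest, Snrpn and Magel2 are lowest in R1.

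The paternally expressed genes of the Snrpn domain stood highest in P19. This domain corresponds to the human region of Prader-Willi and Angelman syndromes. Snrpn, which encodes a spliceosomal protein of neurons, stood at 525, 461 and 483 in P19 NTES7, 769, 733 and 713 in P19, and 175, 186 and 222 in R1. Magel2, a MAGE-family protein of hypothalamic neurons, stood at 46.7, 45.0 and 40.5 in P19 NTES7, 89.4, 82.7 and 68.9 in P19, and 19.3, 21.4 and 18.6 in R1. Ndn, the growth-restraining MAGE-family protein necdin, stood at 113.3, 113.4 and 108 in P19 NTES7, 201, 222 and 268 in P19, and 77.0, 81.0 and 92.2 in R1. In all 3 genes P19 was highest, P19 NTES7 was between and R1 was lowest, with no overlap of the arrays.

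Against R1, Snrpn and Magel2 were called in both lines of the P19 lineage. The log2 differences of Snrpn were 1.34 ± 0.11 for P19 NTES7 minus R1 (adjusted p = 8.19e-07) and 1.93 ± 0.11 for P19 minus R1 (adjusted p = 1.33e-08), and those of Magel2 were 1.16 ± 0.11 (adjusted p = 6.12e-06) and 2.02 ± 0.11 (adjusted p = 1.45e-08). Ndn differed by 1.46 ± 0.12 for P19 minus R1 (adjusted p = 4.02e-07) and by 0.43 for P19 NTES7 minus R1 (adjusted p = 0.0157), short of a call. Ndn was called for P19 NTES7 minus P19 at -1.03 ± 0.12 (adjusted p = 3.18e-05), near the fold limit: without replicate 3 of P19 the value was -0.92 and the call was lost. Snrpn and Magel2 differed by -0.59 and -0.86 in the same comparison (adjusted p = 0.00146 and 0.000132), short of a fold of 2.

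The other genes of the domain were not called. Mkrn3, a paternally expressed ubiquitin ligase, averaged 15.9 in P19 NTES7, 24.4 in P19 and 14.8 in R1, with P19 above each of the others (adjusted p = 0.00288 against P19 NTES7 and 0.000506 against R1) at folds under 2. Atp10a, a lipid flippase reported as maternally expressed, ran in another order, with 86.0, 77.9 and 75.8 in P19 NTES7, 54.0, 61.9 and 54.5 in P19, and 38.9, 41.6 and 44.2 in R1. Its difference of 0.94 for P19 NTES7 minus R1 came close to the fold limit (adjusted p = 1.21e-05).

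Mest and Peg3 were higher in both lines of the P19 lineage than in R1. Mest, a paternally expressed gene of the alpha/beta hydrolase family and a marker of mesoderm, stood at 1036, 959 and 1045 in P19 NTES7, 956, 923 and 873 in P19, and 260.0, 262 and 269 in R1. Mest differed on the log2 scale by 1.94 ± 0.09 for P19 NTES7 minus R1 (adjusted p = 3.67e-09) and 1.80 ± 0.09 for P19 minus R1 (adjusted p = 4.53e-09). P19 NTES7 minus P19 was 0.14, with a 95% interval of -0.05 to 0.34 (adjusted p = 0.322). Copg2, a coat protein gene beside Mest on the other strand and is maternally expressed, averaged 332 in P19 NTES7, 354 in P19 and 219.9 in R1. It was above R1 in both lines, by 0.59 and 0.69 (adjusted p = 0.00106 and 0.000202), at folds under 2.

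Peg3, a paternally expressed zinc-finger protein that acts in growth and maternal care, stood at 425, 434 and 410.5 in P19 NTES7, 282, 278 and 308 in P19, and 125, 128 and 156 in R1. The 3 lines did not overlap. On the log2 scale, Peg3 differed by 1.64 ± 0.10 for P19 NTES7 minus R1 (adjusted p = 8.63e-08) and 1.09 ± 0.10 for P19 minus R1 (adjusted p = 2.38e-06), and 0.55 for P19 NTES7 minus P19 (adjusted p = 0.00212), short of a fold of 2. The study describes Peg3 expression as unchanged by its arrays and real-time PCR, which differs from the 2 calls against R1 here. Usp29, a ubiquitin peptidase gene that starts beside Peg3 on the other strand, was below the array median on all 9 arrays, at 12.6 to 14.3 in P19 NTES7, 11.7 to 13.5 in P19 and 10.1 to 10.3 in R1. R1 was its lowest line too, and it was not called.

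Zim1, the maternally expressed zinc-finger gene of the Peg3 domain, stood at 17.3, 25.4 and 18.6 in P19 NTES7, 9.12, 9.17 and 10.3 in P19, and 13.2, 12.0 and 12.2 in R1. Only the P19 NTES7 arrays reached the array median. The log2 difference of 1.08 ± 0.13 for P19 NTES7 minus P19 was called (adjusted p = 5.95e-05), and without replicate 2 of P19 NTES7, its highest array, it was 0.92 and was not called.

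Zdbf2 and Grb10 were higher in R1 than in P19 NTES7. Zdbf2, a paternally expressed zinc-finger gene that promotes growth and feeding of the newborn mouse, stood at 84.8, 91.1 and 80.7 in P19 NTES7, 55.6, 73.3 and 72.5 in P19, and 202, 201 and 226 in R1. On the log2 scale, Zdbf2 differed by -1.29 ± 0.12 for P19 NTES7 minus R1 (adjusted p = 2.98e-06) and -1.65 ± 0.12 for P19 minus R1 (adjusted p = 1.41e-07), and 0.36 for P19 NTES7 minus P19 (adjusted p = 0.051).

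Grb10, an adaptor that restrains insulin and growth factor signalling, is maternally expressed in most tissues and paternally expressed in neurons. It stood at 49.4, 52.4 and 51.1 in P19 NTES7, 99.1, 99.0 and 106 in P19, and 148, 153 and 196 in R1. The 3 lines did not overlap, with P19 NTES7 lowest. Grb10 differed on the log2 scale by -1.69 ± 0.11 for P19 NTES7 minus R1 (adjusted p = 1.33e-07) and -0.70 for P19 minus R1 (adjusted p = 0.000275), while that of -0.99 for P19 NTES7 minus P19 (adjusted p = 3.32e-05) was 1.99-fold and just short of a call. Without replicate 1 or replicate 2 of P19, or replicate 2 of P19 NTES7, it was -1.01 and was called.

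Ddc, the neighbour of Grb10 and the decarboxylase of dopamine and serotonin synthesis, is paternally expressed in the fetal heart. It stood at 14.2, 13.8 and 11.0 in P19 NTES7, 30.2, 31.9 and 28.4 in P19, and 15.9, 15.2 and 18.7 in R1. P19 was the high line, with a log2 difference of -1.22 ± 0.12 for P19 NTES7 minus P19 (adjusted p = 9.99e-06) and 0.87 for P19 minus R1 (adjusted p = 6.89e-05), the second short of a fold of 2. The arrays of P19 NTES7 were below the array median.

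**Figure D3:**
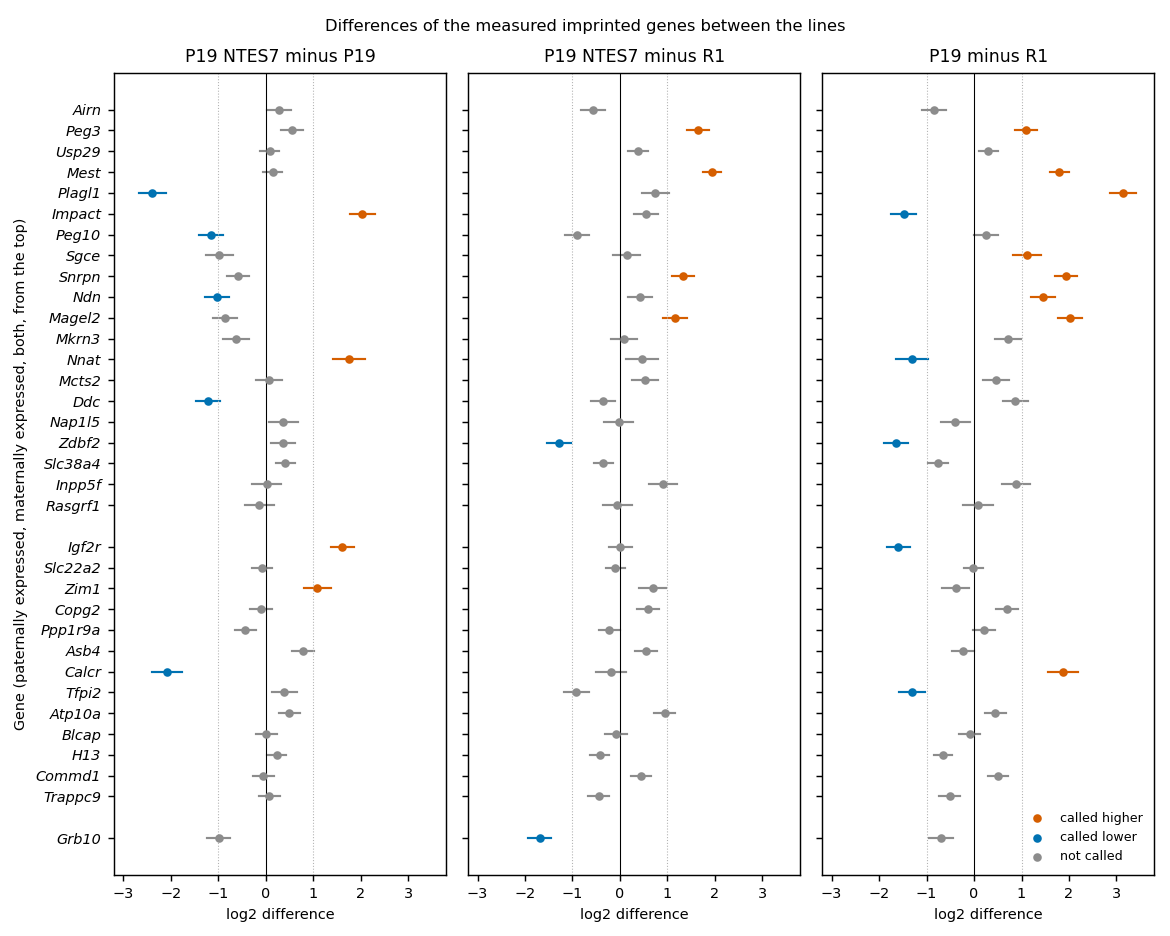
Log2 differences of the 34 measured imprinted genes in 3 comparisons, with the 95% interval from limma (points and bars), genes called higher in orange, called lower in blue and not called in grey, and dotted lines at a fold of 2. The paternally expressed genes fill the upper block, where 7 of 20 are called higher and 3 lower in P19 minus R1, and the maternally expressed genes the middle block, where 1 of 13 is called higher and 2 lower. Over all probe sets, 3.70% are called in each direction in P19 minus R1.

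Of the remaining genes called in no comparison, Nap1l5, a nucleosome assembly factor, and Rasgrf1, a Ras exchange factor, were below the array median on all 9 arrays, between 6.35 and 11.1 and between 9.32 and 14.1. Inpp5f, a phosphoinositide phosphatase, averaged 58.7 in P19 NTES7, 57.3 in P19 and 31.1 in R1, and its differences from R1 of 0.90 and 0.89 came close to the fold limit (adjusted p = 0.000265 and 0.00021). Without replicate 3 of P19 NTES7 or replicate 3 of R1, the difference of P19 NTES7 minus R1 was 1.01 and was called. Slc38a4, an amino acid transporter of the placenta, averaged 327 in P19 NTES7, 245 in P19 and 416 in R1, with -0.76 for P19 minus R1 (adjusted p = 2.84e-05). In these last 2 genes R1 was apart from P19, but in opposite directions.

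Several hosts of imprinted genes were not called. H13, a signal peptide peptidase whose intron holds the retrogene Mcts2, averaged 74.1 in P19 NTES7, 63.2 in P19 and 99.6 in R1, with -0.66 for P19 minus R1 (adjusted p = 7.53e-05). Mcts2 ran the other way, at 106 in P19 NTES7, 102 in P19 and 73.3 in R1, with 0.46 for P19 minus R1 (adjusted p = 0.0113). Commd1, a regulator of copper handling and the host of Zrsr1, averaged 24.5 in P19 NTES7, 25.4 in P19 and 17.9 in R1, and Trappc9, a vesicle transport factor and the host of Peg13, averaged 24.6 in P19 NTES7, 23.4 in P19 and 33.4 in R1. Commd1 and Mcts2 were lowest and H13 and Trappc9 highest in R1.

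Split by the parental copy, both classes held called genes. Of 20 measured paternally expressed genes, 2 were higher and 4 lower by the call in P19 NTES7 against P19, 4 and 1 in P19 NTES7 against R1, and 7 and 3 in P19 against R1. Of 13 maternally expressed genes, 2 (15.4%) and 1 (7.69%) were called in P19 NTES7 against P19. Against R1 the counts were 0 and 0 in P19 NTES7, and 1 (7.69%) and 2 (15.4%) in P19. Over all probe sets, the shares called higher and lower were 1.55% and 1.36%, 1.99% and 2.53%, and 3.70% and 3.70% in these comparisons. With 13 genes, a count of 0 is not set apart from these shares. The median log2 difference of the paternally expressed genes was 0.04, 0.40 and 0.59 in these comparisons, beside 0.07, -0.08 and -0.09 for the maternally expressed ones. These are descriptions: the difference between the 2 classes was not tested. Grb10, expressed from either copy by tissue, was left out of both. The classes follow the gene list and hold genes imprinted in certain tissues, such as Calcr, Blcap, Tfpi2 and Ddc. The copy expressed in these lines was not measured.

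Domains did not move as units in every case. In the Snrpn domain the 4 measured paternally expressed genes had their highest mean in P19, and in the Mest and Peg3 domains the genes on the 2 strands, Mest and Copg2 and Peg3 and Usp29, had their lowest mean in R1, while Zim1 of the Peg3 domain had its lowest mean in P19. In the Peg10 domain the highest mean was in P19 for Calcr, Sgce, Peg10 and Ppp1r9a, in R1 for Tfpi2 and in P19 NTES7 for Asb4. For P19 minus R1, Peg10 (0.26, adjusted p = 0.114) and Ppp1r9a (0.21, adjusted p = 0.15) were not called. Asb4 was below the array median on all 9 arrays. Grb10 and Ddc both had their lowest mean in P19 NTES7, but their highest was in R1 for Grb10 and in P19 for Ddc. The Ddc difference of P19 NTES7 minus R1 was -0.35 (adjusted p = 0.0452) and was not called. These orders of means thus include differences short of a call.

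Most regulators of imprints fixed as a list were not called, and 5 were called in at least 1 comparison. Of 20 measured regulators, 2 were higher and 1 lower by the call in P19 NTES7 against P19 (1.55% and 1.36% of all probe sets), 0 and 3 in P19 NTES7 against R1 (1.99% and 2.53% of all), and 1 and 4 in P19 against R1 (3.70% each of all). Zfp57, the zinc-finger protein whose hexamer is shown above, averaged 40.7 ± 2.54 in P19 NTES7, 52.5 ± 6.44 in P19 and 402 ± 3.26 in R1 (SD, n = 3 arrays each). Its log2 difference was -3.31 for P19 NTES7 minus R1 (adjusted p = 1.77e-10) and -2.94 for P19 minus R1 (adjusted p = 2.34e-10), and -0.36 for P19 NTES7 minus P19 (adjusted p = 0.0288).

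Dnmt3l, the cofactor of de novo DNA methylation in germ cells, averaged 118 in P19 NTES7, 24.3 in P19 and 281 in R1, with 2.29 for P19 NTES7 minus P19 (adjusted p = 3.06e-08) and -1.24 for P19 NTES7 minus R1 (adjusted p = 4.54e-06). Dppa3, which shields methylation marks in the zygote, averaged 26.0 in P19 NTES7, 12.96 in P19 and 36.7 in R1, with 1.01 for P19 NTES7 minus P19 (adjusted p = 0.00402). Its P19 mean lay below the array medians, and the value of 1.01 is near the fold limit. The alternatives given below were run on members only, not on regulators. The other called regulators, named after their values were seen, were Dnmt3a and Tet2. Dnmt3a, a de novo DNA methyltransferase, averaged 76.5 in P19 NTES7, 343 in P19 and 88.2 in R1, with -2.16 for P19 NTES7 minus P19 (adjusted p = 1.6e-07) and 1.98 for P19 minus R1 (adjusted p = 1.01e-07). Tet2, which oxidizes methylated cytosine, averaged 57.7 in P19 NTES7, 51.9 in P19 and 160.04 in R1, with -1.47 for P19 NTES7 minus R1 (adjusted p = 2.04e-06) and -1.64 for P19 minus R1 (adjusted p = 3.7e-07). Zfp57 and Tet2 were thus low in both lines of the P19 lineage, Dnmt3l and Dppa3 were lowest in P19, and Dnmt3a was highest in P19. Their part in the levels of the imprinted genes was not tested.

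In the other imprinted domains, H19, the maternally expressed growth-restraining noncoding RNA, averaged 836 in P19 NTES7, 28.7 in P19 and 500.2 in R1, and Igf2, its paternally expressed neighbour, averaged 64.9 in P19 NTES7, 24.9 in P19 and 84.3 in R1. Both were lowest in P19, as Igf2r was. Only the brightest probe set named for H19 was used here, and the study's own table gives lower H19 levels in all 3 lines, in the same order. Meg3 averaged 361 in P19 NTES7, 305 in P19 and 244 in R1, and Dlk1 averaged 61.0 in P19 NTES7, 49.6 in P19 and 40.3 in R1, with no call in any comparison. Of 15 measured genes of the H19, Igf2 and Kcnq1 domain, 3 were higher and 1 lower by the call in P19 NTES7 against P19, 1 and 2 in P19 NTES7 against R1, and 1 and 4 in P19 against R1. Of 6 measured genes of the Dlk1 to Meg3 domain, 0 and 0, 0 and 1, and 0 and 1 were called in these comparisons, the called gene being Rian, a noncoding RNA (named after its values were seen). Of 13 further imprinted genes, 2 and 0, 0 and 2, and 0 and 4 were called. Over all probe sets, 1.55% and 1.36%, 1.99% and 2.53%, and 3.70% and 3.70% were called higher and lower in these comparisons. Lists of 6 to 15 genes are too short to set counts of 0 or 1 apart from these shares.

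**Figure D4:**
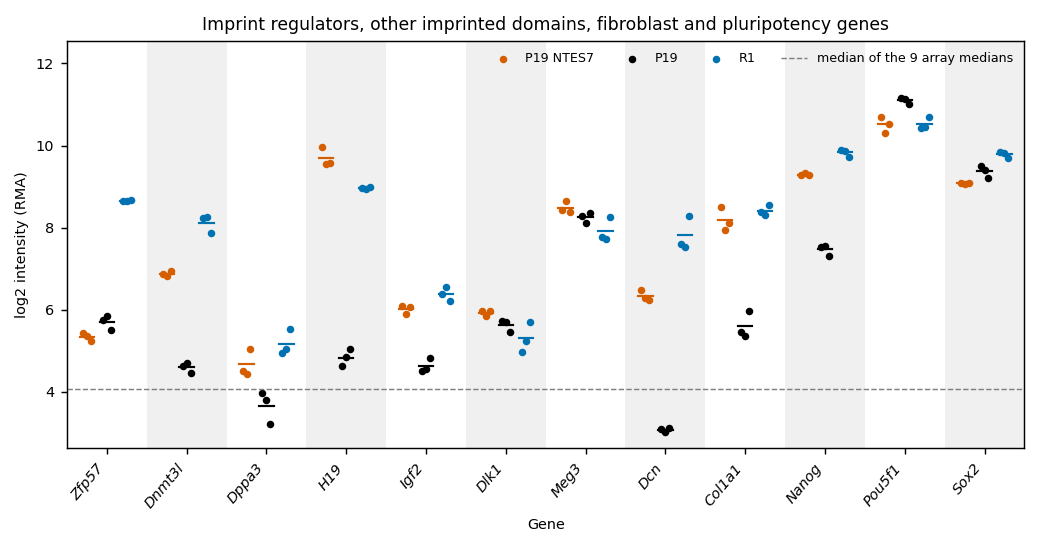
Log2 RMA intensity of imprint regulators (Zfp57, Dnmt3l, Dppa3), of genes of other imprinted domains (H19, Igf2, Dlk1, Meg3), of fibroblast markers (Dcn, Col1a1) and of pluripotency genes (Nanog, Pou5f1, Sox2), with 1 point for each array and a bar for the mean of a line (P19 NTES7 orange, P19 black, R1 blue, n = 3 arrays each). Zfp57 averages 40.7 in P19 NTES7 and 52.5 in P19, against 402 in R1, while H19 is low in P19 alone. Dcn is lowest in P19 (8.45) and is also lower in P19 NTES7 (80.6) than in R1 (232).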

How the data were processed

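The values are intensities that the authors deposited on the linear scale, made with Robust Multichip Average (RMA, its version not given in the sources used here) from Affymetrix Gene 1.0 ST arrays hybridised with biotin-labelled RNA. Per the labels, 3 biological replicates were run for each of P19 NTES7, P19 and R1. The stem cell arrays were taken as the line P19 NTES7 from the study's text. Array medians ran from 16.5 to 17.5, correlations between arrays of a line from 0.9893 to 0.9978, and no 2 arrays held identical values. RMA models the background and equalizes the distributions of the arrays, which compresses differences near the floor. The raw scans were not used here.

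Log2 of the deposited intensities was computed, with no added constant, and limma 3.58.1 in R 4.3.3 was run on all 28853 probe sets, with 1 coefficient per line and its moderated variance. The script was tested on simulated data with known changes. Errors of differences are standard errors from limma. P-values were adjusted by Benjamini-Hochberg over all probe sets of a comparison, with a limit of 0.01 and a fold limit of 2. The platform annotation gave 21789 probe sets 1 symbol, 1621 several and 5443 none. Neighbours were taken from the order of RefSeq genes on GRCm38.p6, and promoter windows are those of RefSeq on that build. The build behind the array annotation was not given in the sources used here, and no gene positions from it are stated.

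The members, the lists of markers and regulators and the tests were chosen with earlier results of these data known. Genes are named by rule: every member is accounted for, those called in a comparison are given by array, and 12 further genes were set by name (Pou5f1, Sox2, Nanog, Dcn, Col1a1, Zfp57, Dppa3, Dnmt3l, H19, Igf2, Meg3 and Dlk1). Other genes are marked where they were named after their values were seen. H19, like Snrpn, was named through the study's list of probe sets. Alternatives were quantile normalization, centring of arrays, a pseudocount, a filter on low values, another variance model, 6 arrays, a replicate block, the one-way test of the methods, no fold limit and leaving out each array.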

Additional observations from a re-analysis of the deposited data

How the results depend on the processing

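Of 28 called differences of single genes, 20 were called under every one of the 20 alternatives run, and no difference changed its direction. Some alternatives could not lose a call: dropping the fold limit only loosens the rule, and adding the probe sets of Ube3a and Gnas leaves the fit as it was. With a pseudocount of 16 before the log, which shrinks the folds of dim genes, 2 genes were higher and 3 lower by the call in P19 NTES7 against P19, and 3 lower in P19 against R1. The calls lost there were Zim1 (0.51), Ndn (-0.94), Nnat (0.96) and Ddc (-0.67) in P19 NTES7 minus P19, Magel2 (0.75) in P19 NTES7 minus R1, and Sgce (0.82), Tfpi2 (-0.77) and Nnat (-0.66) in P19 minus R1. Quantile normalization lost Ndn (-0.94), and centring the arrays on their medians added Sgce (-1.02) and Grb10 (-1.04) in P19 NTES7 minus P19. With no limit on the fold, 8 were higher and 10 lower by the call in P19 NTES7 against P19, 14 and 7 in P19 NTES7 against R1, and 14 and 10 in P19 against R1. Leaving out each array in turn gave 3 to 4 higher and 4 to 7 lower in P19 NTES7 against P19, 4 to 5 and 2 to 3 in P19 NTES7 against R1, and 8 and 5 throughout in P19 against R1. Replicate numbers do not pair the arrays (correlations of same-numbered deviations from -0.223 to 0.0403, others from -0.15 to 0.207), and with the replicate block the counts were 4 and 5, 4 and 2, and 8 and 5. The probe sets of Ube3a and Gnas, an alternative chosen after seeing the data, left these counts as they were. Averaging the probe sets of a gene was not run, since each member has 1. With 3 arrays a line, differences under a fold of 2 and genes near the array floor are the least certain.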
